A study of Mus musculus with 24 samples.

Results

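The genes described here encode the subunits of the glutamate and GABA receptors, the receptors for the main excitatory and the main inhibitory transmitter of the brain. Their expression was measured by RNA sequencing of mouse hypothalamus. The members were all genes whose symbol names a subunit of the AMPA (Gria), NMDA (Grin), kainate (Grik), delta (Grid) or metabotropic (Grm) glutamate receptors or of the GABA-A (Gabra, Gabrb, Gabrg, Gabrd, Gabre, Gabrq) or GABA-B (Gabbr) receptors, which gave 43 of the 55471 genes counted. They comprised 18 ionotropic and 8 metabotropic glutamate receptor genes, 15 GABA-A genes and 2 GABA-B genes. The animals were 18-week-old male C57BL6/J mice kept on chow with a gastric catheter. ExpOF mice received a liquid diet with 20% added sucrose by intragastric infusion, at rates that reached 150% of baseline energy intake on day 9, and control mice received water at the same flow rates. Brains were collected either when overfeeding ended (d14) or after 3 further days in which both arms received only water (d14+3). Each of the 4 groups (ExpOF d14, Control d14, ExpOF d14+3, Control d14+3) held 6 mice, 1 library per mouse, from a July and a September cohort with 3 mice of every group in each.

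Glutamate and GABA act through ion channels and through receptors coupled to G proteins. AMPA, NMDA and kainate receptors are tetramers that pass cations and depolarize the cell, whereas GABA-A receptors are pentamers of alpha, beta and a further subunit that pass chloride. The metabotropic glutamate receptors and the GABA-B receptor, an obligate dimer of its subunits, change second messengers and channel activity more slowly. In the hypothalamus both transmitters drive and restrain the neurons that control feeding, and the choice of subunits sets the speed, the drug sensitivity and the synaptic or extrasynaptic place of a receptor.

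Total counts assigned to genes ranged from 8928182 to 34848437 over the 23 libraries tested. Control d14 replicate 4 was not tested, since mean counts match it to the mouse the study removed for poor RNA quality, although its label gives an RNA integrity number (RIN) of 9.8. That left n = 5 in Control d14 and n = 6 in each other group. All 13 hypothalamus markers examined were detected, with a summed level of 2816 to 6952 TPM (counts divided by exon length and scaled to the same total in every library). Markers of neighbouring tissue were present too. The summed level of 4 pituitary markers was 471 TPM in Control d14 replicate 1 and 138 TPM in replicate 2 against 78.5 TPM or less in the other libraries. The 4 choroid plexus markers reached 9110 TPM in Control d14 replicate 5 and 3978 TPM in ExpOF d14+3 replicate 4, against 118 TPM or less in the others that were tested. The 5 thalamus markers summed to 652 to 1178 TPM. In bulk tissue fewer cells of a type and less RNA per cell cannot be told apart.

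Upstream sequence was available for 28 of the 43 members, with 35 annotated starts, from RefSeq on build GRCm38.p6. Below are the 250 bases before the start of a pair of genes with higher values on d14+3 (Grin2c and Grm2, described further on) and of a pair with higher values in ExpOF mice on d14 (Gria2 and Gria4). Each is written 5′ to 3′ on the strand of the gene, which is the minus strand for all of them, with every GC box (GGGCGG, either strand) in capitals.
Grin2c, chr11:115267244-115267493: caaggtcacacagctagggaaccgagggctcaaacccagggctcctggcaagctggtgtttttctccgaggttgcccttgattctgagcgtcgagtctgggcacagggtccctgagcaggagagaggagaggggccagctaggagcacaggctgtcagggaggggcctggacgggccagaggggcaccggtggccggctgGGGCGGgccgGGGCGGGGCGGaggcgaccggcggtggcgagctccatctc
Grm2, chr9:106656110-106656359: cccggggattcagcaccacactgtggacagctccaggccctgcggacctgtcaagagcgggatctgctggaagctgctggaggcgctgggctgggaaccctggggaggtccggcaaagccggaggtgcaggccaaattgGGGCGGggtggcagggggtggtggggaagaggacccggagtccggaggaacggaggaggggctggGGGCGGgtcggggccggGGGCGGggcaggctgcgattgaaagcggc
Gria2, chr3:80802836-80803085: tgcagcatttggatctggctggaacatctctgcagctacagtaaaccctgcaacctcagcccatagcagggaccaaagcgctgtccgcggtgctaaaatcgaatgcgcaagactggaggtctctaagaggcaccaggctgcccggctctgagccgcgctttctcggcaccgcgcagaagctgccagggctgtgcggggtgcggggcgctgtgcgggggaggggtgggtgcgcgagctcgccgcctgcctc
Gria4, chr9:4796235-4796484: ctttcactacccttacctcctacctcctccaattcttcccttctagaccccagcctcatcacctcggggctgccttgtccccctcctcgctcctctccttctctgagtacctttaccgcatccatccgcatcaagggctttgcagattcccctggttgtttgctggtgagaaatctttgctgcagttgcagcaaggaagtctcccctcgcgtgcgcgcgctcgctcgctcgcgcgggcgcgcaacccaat
The windows of Grin2c and Grm2 held 3 GC boxes each and those of Gria2 and Gria4 held 0. These windows do not stand for their groups, since other members with an unadjusted p under 0.05 and higher values in ExpOF mice on d14 held 1 (Gabra2, Grm7 and 1 of the Gabrb2 starts). Among windows of the same kind that also took in the first 50 bases of the transcript, 51.4% of the member windows and 35.7% of 32851 windows of all genes held a GC box. A TATAAA box was found in 11.4% of member windows and 13.6% of all windows and a TGACGTCA element in 0% and 1.79%, on either strand. A match of letters is a description of these windows and shows no binding.

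Levels between genes are compared in TPM, which divides each count by the exon length given with the counts. Of the 43 members, 41 passed the expression filter. Grm6, the receptor of retinal ON bipolar cells, and Gabra6, the subunit of cerebellar granule cells, did not pass, and their highest levels in any of the 23 libraries were 0.0658 and 0.199 TPM. Mean levels exceeded 100 TPM for 9 members, lay between 10 and 100 TPM for 28, between 1 and 10 TPM for 3 and under 1 TPM for 3. The highest was Gabbr1, the GABA-binding subunit of the GABA-B receptor, at 459 ± 30.8 TPM (SD over 23 libraries), followed by the AMPA subunit Gria1 at 337 ± 28.9 TPM.

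Within the ionotropic glutamate receptors, Gria1 was followed by Gria2 at 87.9 ± 20.8 TPM and Gria4 at 83.0 ± 11 TPM, which overlapped, and Gria3 was lowest at 40.4 ± 5.41 TPM. Gria2 encodes the edited subunit that limits calcium entry, and it made up 15.8% ± 2.25 of the AMPA class level against 61.7% ± 2.85 for Gria1. Grin1, the obligatory NMDA subunit, stood at 111 ± 10.2 TPM. Its glutamate-binding partners Grin2d (30.3 ± 2.97 TPM), Grin2c (29.9 ± 6.13 TPM) and Grin2b (22.2 ± 5.07 TPM) were close together, while Grin2a was at 6.20 ± 1.17 TPM and Grin3b at 0.743 ± 0.191 TPM. In the kainate class the high-affinity subunit Grik5 led at 110 ± 7.91 TPM and the lowest was Grik1 at 20.8 ± 1.86 TPM. Grid1, a synaptic protein of the delta class that binds cerebellins, was at 67.6 ± 5.53 TPM.

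The metabotropic receptors covered a narrower range. In group I, which activates phospholipase C, Grm5 stood at 42.9 ± 10.2 TPM. Groups II and III inhibit adenylyl cyclase and sit largely on nerve terminals. Grm3 (39.5 ± 4.07 TPM) was above Grm2 (28.4 ± 5.98 TPM), with overlap, and Grm7 led group III at 45.4 ± 5.64 TPM, with Grm8 at 7.29 ± 0.821 TPM.

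Gabra3 led the GABA-A alpha subunits at 178 ± 15.7 TPM. Gabra2, at 31.8 ± 9.13 TPM, was the lowest alpha subunit that passed the filter. Gabrb2 had the lowest mean of the beta subunits at 52.7 ± 16.9 TPM, and Gabrg3 that of the gamma subunits at 16.3 ± 3.06 TPM. Among the remaining subunits Gabrq, known for its hypothalamic expression, led at 74.1 ± 15.7 TPM, and Gabre was lowest at 25.9 ± 4.40 TPM. Gabrd, the subunit of extrasynaptic receptors, had the widest range for its level, from 3.34 to 72.5 TPM. Gabbr2, which couples the GABA-B dimer to its G protein, was at 153 ± 26.5 TPM.

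**Figure D1:**
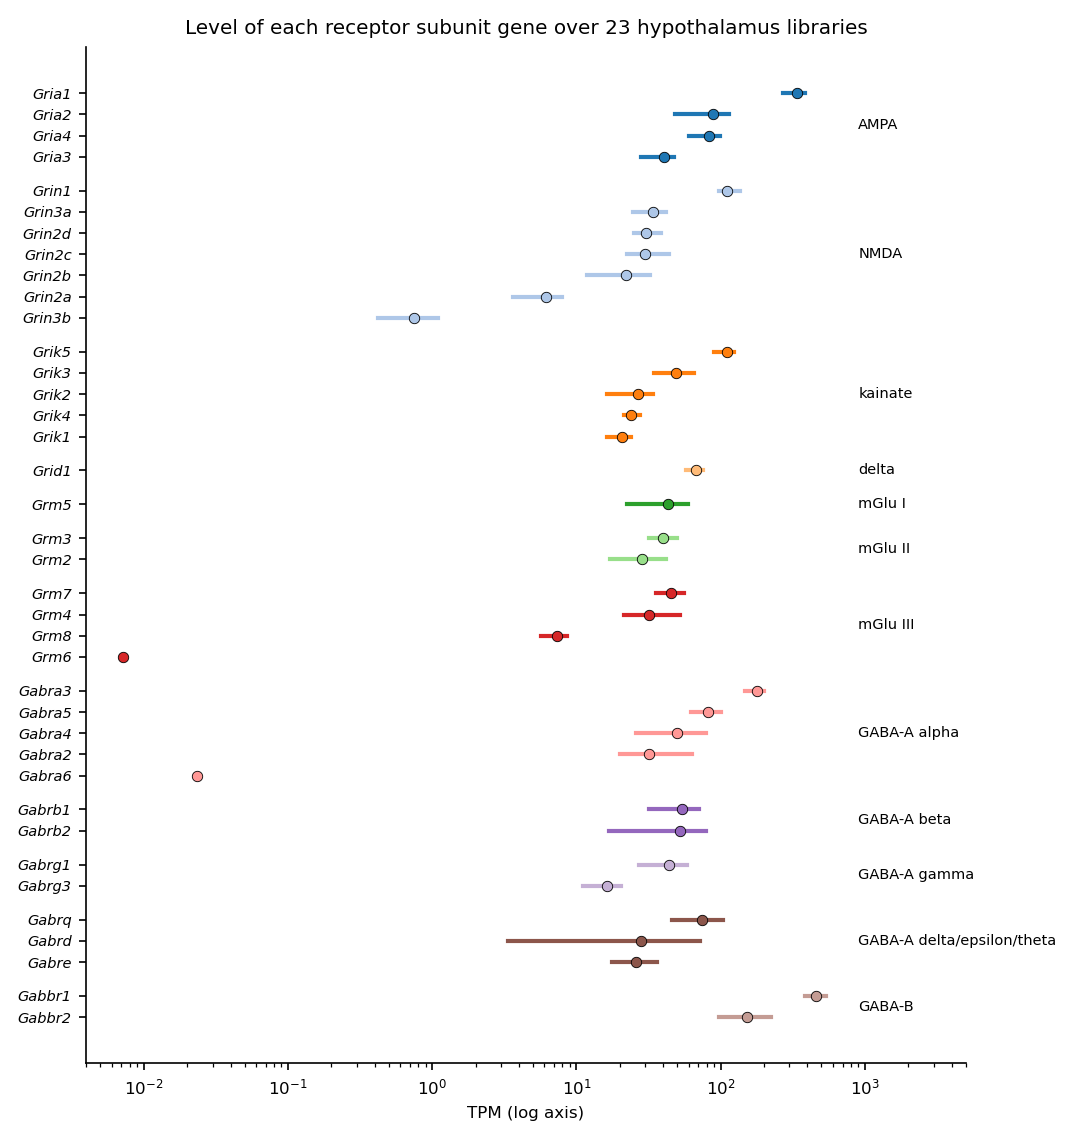
Mean level of 38 receptor subunit genes over 23 hypothalamus libraries (dots), with the lowest and highest library (lines), in TPM on a log axis, grouped by receptor class. Gabbr1 and Gria1 lead, Gabrd spans 3.34 to 72.5 TPM, and Grm6 and Gabra6 are drawn without a line because their lowest library is at 0.

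To ask whether overfeeding altered the subunits at its end, ExpOF d14 was compared with Control d14. None of the 41 members tested passed the adjusted threshold of 0.05 (edgeR's quasi-likelihood F-test, Benjamini-Hochberg over 18992 genes), against 0.00527% of all genes, which is 1 gene. DESeq2 also called 0 members, against 166 of the 18992 genes. At an unadjusted p under 0.05 there were 15 members in edgeR, 14 of them higher in ExpOF mice, and 15 in DESeq2, all higher. In edgeR the share of members was 36.6% against 26.7% of all genes, and 34.1% against 13.1% for the higher direction. In DESeq2 5226 of the 18992 genes had an unadjusted p under 0.05. Of the members, 31 had a log2 fold change above 0 (46.6% of all genes did), and the median log2 fold change was 0.16 against -0.02 for all genes. The smallest adjusted p of any member was 0.135 in edgeR.

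In the AMPA class 3 of 4 members had an unadjusted p under 0.05. Gria4 (chr9:4417896-4796142, minus strand, mm10) stood at 139, 111, 129, 111 and 121 CPM (counts scaled to library size by TMM) in Control d14 replicates 1, 2, 3, 5 and 6, and at 137.9, 146.2 and 147.9 CPM (lowest, median, highest) in ExpOF d14. The ExpOF libraries were close together, and 5 of 6 lay above every control. The log2 fold change was 0.24 ± 0.08 (SE), with an unadjusted p of 0.00496 and an adjusted p of 0.135 in edgeR (two-sided exact permutation test, p = 0.00433, where the smallest possible is 0.00216). For Gria2, with 434, 244, 338, 237 and 283 CPM in the same controls and 383, 404 and 461 CPM (lowest, median, highest) in ExpOF mice, the log2 fold change was 0.43 ± 0.16. Here the groups overlapped because replicate 1 exceeded 5 of the 6 ExpOF libraries. Gria3 had a log2 fold change of 0.24 ± 0.08 and Gria1, the most abundant AMPA subunit, of 0.07. For Gria3 control replicate 1, at 107.6 CPM, lay within the ExpOF range of 103.8 to 121.0 CPM.

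NMDA and kainate subunits were mixed. Grin2b was at 114 ± 21.9 CPM (SD, n = 5) in Control d14 and 141 ± 21.2 CPM (SD, n = 6) in ExpOF d14, with an edgeR log2 fold change of 0.31 ± 0.14 (adjusted p = 0.177). Grin2a had a log2 fold change of 0.25 ± 0.12, and 3 of the 7 NMDA members lay below 0, with Grin2c at -0.23 ± 0.13 (unadjusted p = 0.0926 in edgeR). The fitted change of Grin2c was thus of opposite sign to that of Grin2a and Grin2b. Grik2, a low-affinity kainate subunit, had a log2 fold change of 0.31 ± 0.13. Grik4, a high-affinity one, was the only such member below its control level, at 36.5 against 39.6 CPM (log2 fold change -0.11 ± 0.05).

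Among the metabotropic genes Grm5 and Grm7 had an unadjusted p under 0.05. Grm5, a group I receptor, was at 132, 75.5, 106, 72.2 and 89.4 CPM in Control d14 replicates 1, 2, 3, 5 and 6 and at 123, 126 and 159 CPM (lowest, median, highest) in ExpOF d14, a log2 fold change of 0.47 ± 0.17 (edgeR adjusted p = 0.138). Control replicate 1 again lay among the ExpOF libraries, and the other 4 controls lay below all of them. Grm7, a presynaptic group III receptor, was at 63.2 ± 5.49 CPM in 5 controls and 73.0 ± 4.80 CPM in 6 ExpOF mice (SD), with a log2 fold change of 0.21 ± 0.07. Its class mate Grm4 (-0.23 ± 0.18) and the group II gene Grm2 had fitted changes below 0, neither with an unadjusted p under 0.05 in edgeR.

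Of the 14 GABA-A members tested, 6 had an unadjusted p under 0.05, all higher in ExpOF mice. They included Gabra2, Gabrb1, Gabrb2 and Gabrg1. Gabrb2 had the largest log2 fold change among the members at an unadjusted p under 0.05, 0.64 ± 0.25 (edgeR adjusted p = 0.144), with 103, 29.6, 68.8, 54.6 and 49.5 CPM in Control d14 replicates 1, 2, 3, 5 and 6 against 72.3, 102 and 107 CPM (lowest, median, highest) in ExpOF d14. The controls were widely spread, and only replicate 1 lay above the ExpOF median. Gabra2 had a log2 fold change of 0.45 ± 0.16, Gabrb1 of 0.40 ± 0.16 and Gabrg1 of 0.32 ± 0.14. ExpOF replicate 6 held 121 CPM of Gabra2 against 67.3 to 76.9 CPM in the other 5. Gabra3, Gabra4 and Gabra5 had log2 fold changes of 0.04 to 0.08, and Gabrd had the largest absolute value of all members, -0.70 ± 0.52, with an unadjusted p of 0.190 in edgeR. The GABA-B genes had values of 0.00 and 0.05.

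**Figure D2:**
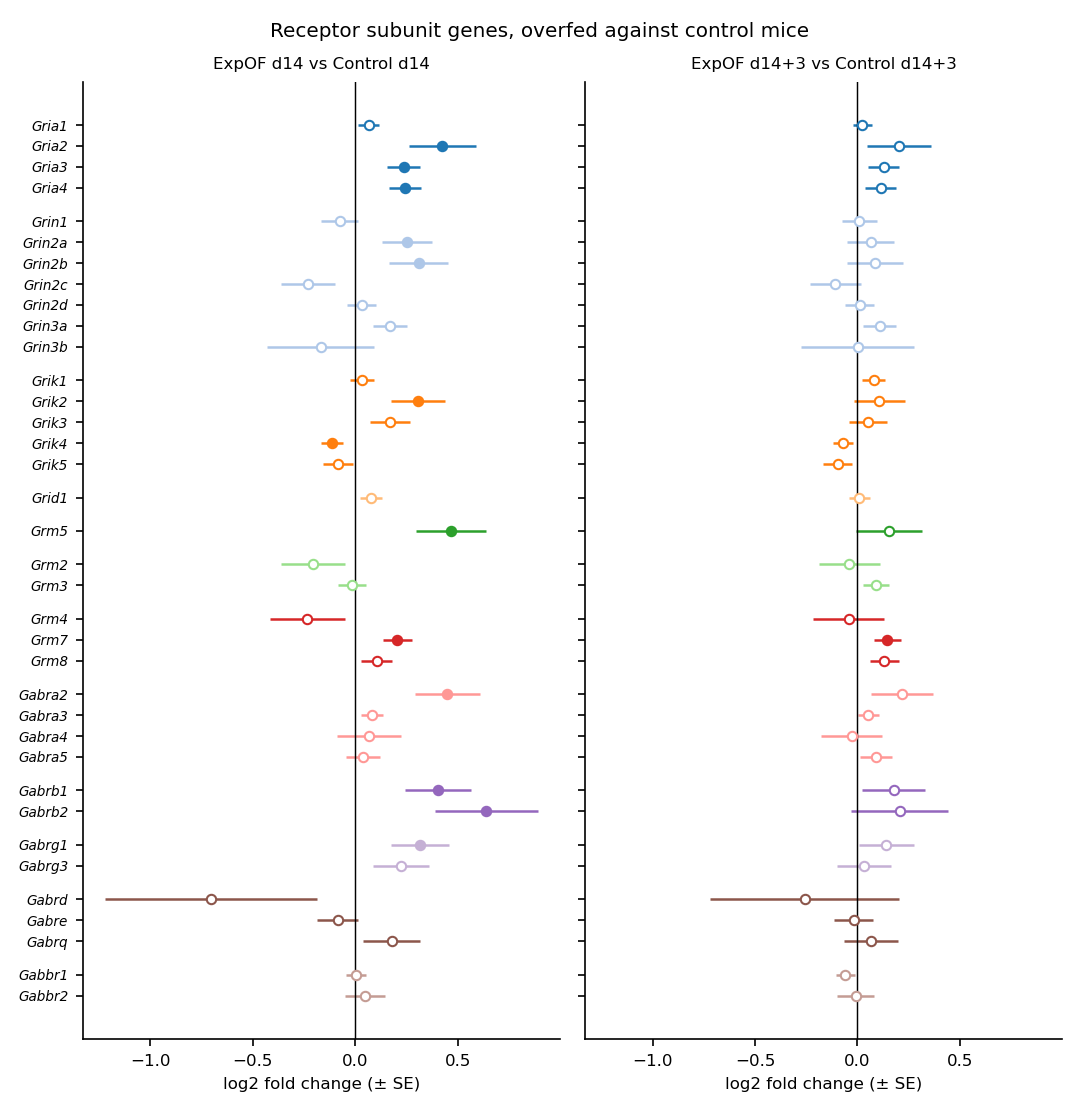
Log2 fold change of ExpOF against Control mice with its SE (bars) for 36 of the members tested, on d14 (left) and d14+3 (right), in the class order and colours of the plot of levels. Filled dots have an unadjusted p under 0.05 in edgeR's quasi-likelihood F-test: 13 of those drawn on d14, of which only Grik4 is lower, and 1 member (Grm7) on d14+3.

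No member had groups that did not overlap on d14, against 2.5% of all genes (1.54% higher and 0.958% lower). Summed over a class, the ExpOF d14 and Control d14 libraries also overlapped in all 12 classes. The largest ratio of class means was in the GABA-A beta class, 261 ± 17.4 TPM (SD, n = 6) against 201 ± 56.5 TPM (SD, n = 5), a log2 ratio of 0.38. The AMPA class was at 593 ± 23.4 TPM against 514 ± 82.4 TPM, a log2 ratio of 0.21, whereas NMDA (0.05), kainate (0.07) and GABA-B (0.06) were smaller and mGlu group II was at -0.04. The SD of ExpOF d14 was smaller than that of Control d14 in 10 of the 12 classes. Class sums are given without a test.

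**Figure D3:**
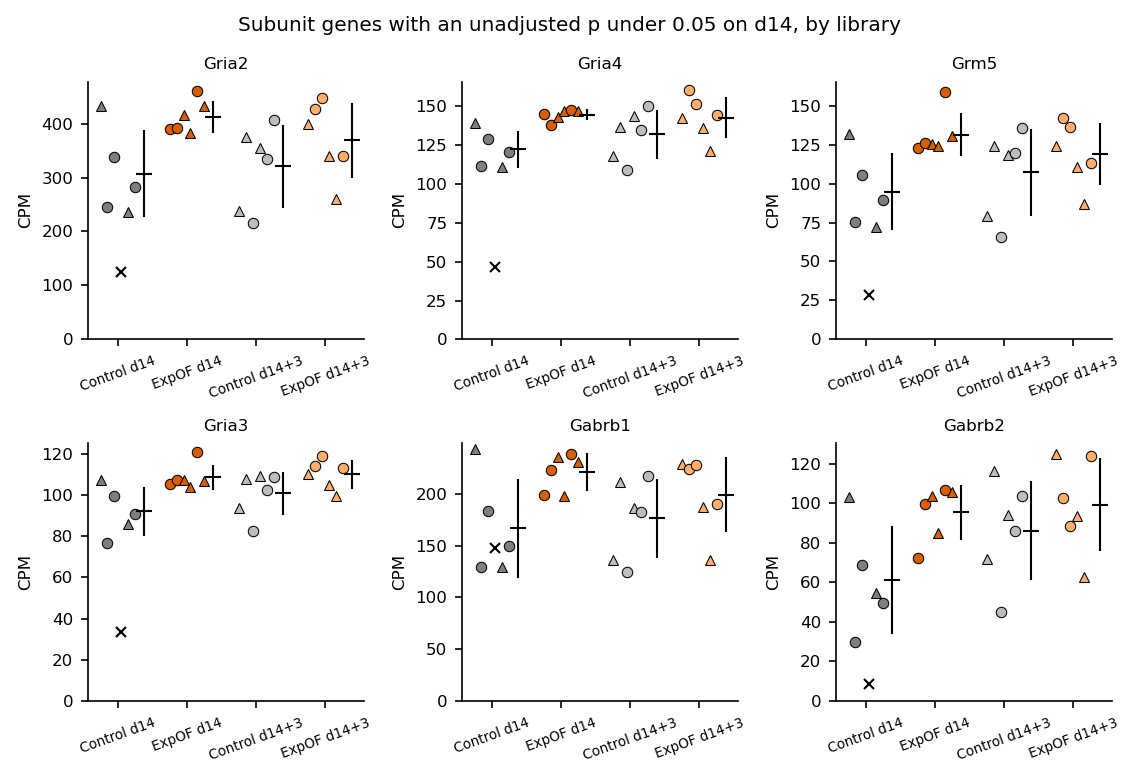
CPM of 6 members with an unadjusted p under 0.05 on d14, by library (circles July cohort, triangles September cohort), with the mean and SD of the tested libraries beside each group. The cross is Control d14 replicate 4, which was not tested. In Control d14 the first point, replicate 1, lies with or above the ExpOF d14 libraries in Gria2, Gria3, Grm5, Gabrb1 and Gabrb2. In Gria4 it lies just above the lowest of them.

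The number of members counted on d14 depended on single libraries of both groups. Without Control d14 replicate 1, the September library with a RIN of 8.6 and the highest pituitary marker level, 14 members were called at an adjusted p under 0.05 in edgeR, all higher in ExpOF mice, together with 22.0% of all genes. They included Gria2, Gria3, Gria4, Grin3a, Grik2, Grik3, Grm5, Grm7, Gabra2, Gabrb1 and Gabrb2. Without Control d14 replicate 2, 6 members were left at an unadjusted p under 0.05, with 14.4% of all genes. Without Control d14 replicate 5 there were 8 (15.1% of all genes) and without ExpOF d14 replicate 5 there were 9 (21.7% of all genes). The July cohort alone gave 12 members at an unadjusted p under 0.05 (18.7% of all genes), all higher, with a median log2 fold change of 0.21, and the September cohort alone, with 2 controls, gave 0 (4.40% of all genes), with a median of 0.08. The RIN of replicate 1 was not the lowest. Over the 23 libraries RIN ranged from 7.2 to 10. Control d14 replicate 5 had 8.0 and replicates 2, 3 and 6 had 9.6, 9.8 and 10, against 9.6 to 10 in ExpOF d14. Control d14+3 replicates 4, 5 and 6 had 7.9, 7.2 and 7.9, against 8.8 to 10 in ExpOF d14+3. The part of pituitary tissue or of RNA quality in the values of replicate 1 was not tested.

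The exons of the members are long, with a median of 6542 bases over the 43 against 3787 bases over the genes tested, and 77.9% of tested genes were shorter than the member median. Across the 41 members the d14 log2 fold change was higher at greater exon length (Spearman's rho = 0.639), as it was across all 18992 genes (0.412). Genes share libraries and are not independent replicates, so no p is given. After each library's trend with length was removed, the median log2 fold change of the members was 0.03 and 10 members had an unadjusted p under 0.05 (19.6% of all genes did), 9 of them higher, with rho at 0.287 across members and 0.062 across all genes. Gabrb2 (0.60), Gabra2 (0.36) and Grm5 (0.34) still had the highest log2 fold changes, while Grin2b, which has the longest exons in sum (24842 bases), moved from 0.31 to 0.03. On d14+3 rho was 0.41 across members and 0.249 across all genes.

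**Figure D4:**
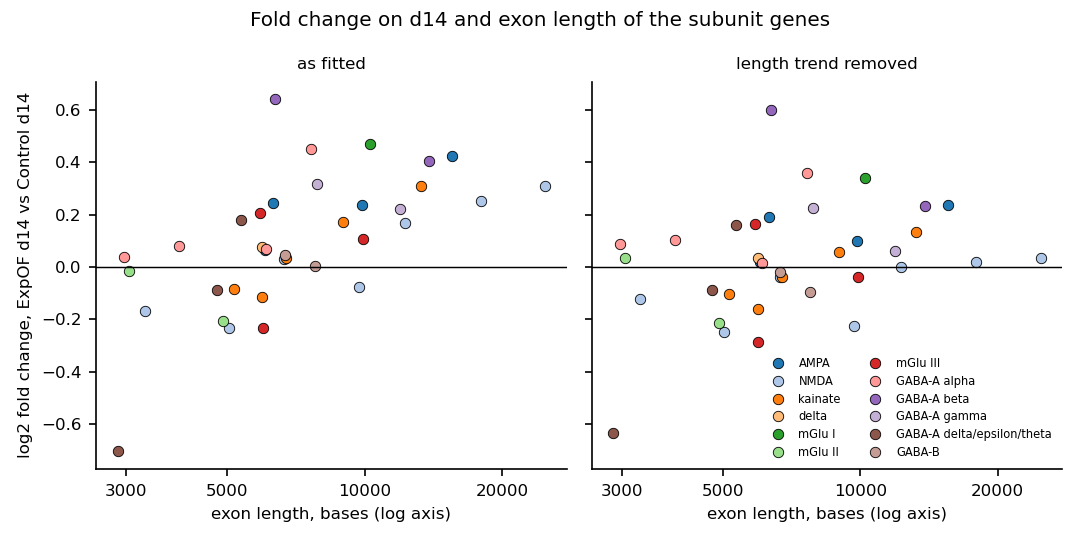
Log2 fold change on d14 against exon length in bases (log axis) for 36 of the members tested, as fitted (left) and after each library's trend with length was removed (right), coloured by class. Spearman's rho over all 41 members tested falls from 0.639 to 0.287, and Gabrb2 stays highest at 0.60.

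In Control d14 replicate 4, the library left out, 25 of the 41 members lay below all 5 other controls (45.5% of all genes did) and 6 above them (37.4% of all genes). Gabrb2 was at 8.71 CPM and Gria4 at 46.7 CPM there, and Gabrd at 70.9 CPM. The same library held 9099 TPM of choroid plexus markers and 1532 TPM of the 6 neuron markers, against 2720 to 3404 TPM in the others. With all 24 libraries in the fit, 20 members had an unadjusted p under 0.05 in edgeR (38.3% of all genes did), 18 of them higher in ExpOF mice, and 0 were called.

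The comparison at d14+3 asks whether differences remained 3 days after overfeeding. None of the 41 members was called in edgeR (0% of all genes) or in DESeq2 (55 of 18992 genes). In each, 1 member had an unadjusted p under 0.05 (2.44% of members against 7.11% of all genes in edgeR, 2.91% higher and 4.2% lower, and 1419 of 18992 genes in DESeq2). This was Grm7, at 57.0, 69.6 and 72.5 CPM (lowest, median, highest) in Control d14+3 and 69.0, 72.5 and 81.4 CPM in ExpOF d14+3, a log2 fold change of 0.15 ± 0.07 (edgeR adjusted p = 0.680). The groups overlapped, with 3 ExpOF libraries above every control. Of the members 31 had a log2 fold change above 0 (52.1% of all genes), with a median of 0.07. The largest absolute values were those of Gabrd (-0.26 ± 0.46), Gabra2 (0.22) and Gabrb2 (0.21), all within 1.5 times their SE. No member had groups that did not overlap, against 0.421% of all genes (0.121% higher and 0.3% lower).

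Class sums on d14+3 overlapped between ExpOF and control mice in all 12 classes. The GABA-A gamma class (205 ± 35.3 against 178 ± 39.3 TPM, log2 ratio 0.21) and the beta class (0.20) had the largest ratios, and the remaining classes had ratios of 0.15 or less. The difference between the effects on the 2 days was tested as an interaction term, which called 0 members and gave 0 at an unadjusted p under 0.05, in edgeR and in DESeq2 alike (4.42% of all genes in edgeR, 2.78% higher and 1.64% lower, with 52.6% of all genes above 0). In DESeq2 860 of 18992 genes had an unadjusted p under 0.05 for this term. For Gabrb2 the change between days in the effect was -0.43 on the log2 scale ± 0.34 (SE), with an adjusted p of 0.903 in edgeR.

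The 2 collection days were also compared within each arm. In Control d14+3 against Control d14, 3 of the 41 members were called in edgeR against 1.15% of all genes, all higher on d14+3, among them Gabra4 and Gabbr2. At an unadjusted p under 0.05 there were 11 members (26.8% against 12.7% of all genes), 10 of them higher (6.81% of all genes) and 1 lower (5.93%). Within ExpOF mice 0 members were called in edgeR (0% of all genes) and 11 had an unadjusted p under 0.05 (26.8% against 7.79% of all genes), 8 higher (5.39% of all genes) and 3 lower (2.4%), while DESeq2 called 3, Gabra4, Gabrd and Grm4 (1.06% of all genes). DESeq2 called 4 members in control mice (2.80% of all genes). Single libraries changed these counts in edgeR. Without Control d14 replicate 2 none of the members was called between the control days (Gabra4 at 0.77, edgeR adjusted p = 0.0653), and leaving out Control d14 replicate 3 or Control d14+3 replicate 1, 2 or 4 gave 1 called member each. Without Control d14 replicate 5 there were 4, Gabre being lower on d14+3 (-0.39, edgeR adjusted p = 0.0420). Of all genes, 24 were called without Control d14 replicate 2, 47 to 109 in the fits with 1 called member and 265 without Control d14 replicate 5. Which class sums did not overlap between the control days depended on the scale. In TPM it was group III of the metabotropic receptors (75.1 ± 6.71 on d14, n = 5, and 86.7 ± 3.59 on d14+3, n = 6, SD), and in RPKM with TMM library sizes it was the GABA-B class (134.7 to 156.4 on d14 and 156.8 to 185.6 on d14+3), while group III then overlapped. In ExpOF mice no member was free of overlap (0.832% of all genes were, 0.632% higher). Collection day, kill date and dissection cannot be told apart, and the 2 day comparisons share no mice with each other, although each shares its d14 libraries with the d14 comparison.

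Gabra4 (chr5:71569749-71657890, minus strand, mm10), which pairs with Gabrd in extrasynaptic receptors of thalamic relay neurons, was at 48.2, 43.6, 41.9, 70.4 and 74.1 CPM in Control d14 replicates 1, 2, 3, 5 and 6 and at 81.3, 101 and 115 CPM (lowest, median, highest) in Control d14+3. All 6 d14+3 controls lay above all d14 controls (groups of 1.58% of all genes did not overlap, 1.08% higher). It rose by 0.84 ± 0.16 on the log2 scale (edgeR adjusted p = 0.0111). The two-sided exact permutation test gave p = 0.00216, the smallest it can give. In ExpOF mice the values were 47.8, 55.7 and 82.1 CPM on d14 and 78.3, 97.1 and 122 CPM on d14+3, a log2 fold change of 0.75 ± 0.15 (edgeR adjusted p = 0.0677), and 5 of 6 libraries lay above all of the earlier day. As a share of the GABA-A alpha class, Gabra4 was 7.73% ± 2.29 in Control d14 and 12.4% ± 2.42 in Control d14+3, and 7.07% ± 1.29 and 11.6% ± 2.19 in ExpOF mice.

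Gabbr2 (chr4:46662305-46991873, minus strand, mm10) was at 180, 234 and 263 CPM (lowest, median, highest) in Control d14 and 257, 302 and 325 CPM in Control d14+3, overlapping in 1 library of the later day. Its log2 fold change was 0.39 ± 0.10 (edgeR adjusted p = 0.0459), but the call depended on the setting, since only 13 of the alternatives (14 settings and 23 left-out libraries) gave it, with log2 fold changes of 0.17 to 0.48 and adjusted p-values of 0.00869 to 0.879 in edgeR or DESeq2. In ExpOF mice the log2 fold change was 0.33 ± 0.09. Gabbr1, its obligate partner, did not overlap between the control groups (889 ± 30.4 against 987 ± 56.2 CPM), with a log2 fold change of 0.15 and an adjusted p of 0.144 in edgeR. In the share of the GABA-B class, Gabbr2 was at 22.9% ± 2.0 in Control d14 and 26.0% ± 0.848 in Control d14+3, and 23.5% ± 0.725 and 26.6% ± 1.89 in ExpOF mice.

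Gabrd (chr4:155384980-155398047, minus strand, mm10) had the largest log2 fold changes between days, 1.38 ± 0.50 in control and 1.82 ± 0.50 in ExpOF mice, with adjusted p-values of 0.230 and 0.148 in edgeR. It was at 2.38, 8.00, 5.62, 28.0 and 20.8 CPM in Control d14 replicates 1, 2, 3, 5 and 6, and at 17.1, 31.8 and 56.2 CPM (lowest, median, highest) in Control d14+3. Replicates 5 and 6 of Control d14 thus lay among the later libraries. Grm4 (0.43 and 0.62) and Grin2c (0.31 and 0.44), the latter known from thalamus and cerebellum, had an unadjusted p under 0.05 in both arms, and Grm2 (0.41) and Grm3 (0.20) in ExpOF mice. Grin2a and Grin2b had log2 fold changes of 0.33 and 0.42 in control mice. Lower on d14+3 at that threshold were Gabre in both arms (-0.33 and -0.26) and Gabrq (-0.31) and Gabra2 (-0.37) in ExpOF mice.

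Several marker lists moved with these genes. Only the thalamus marker level was used as a covariate in a fit, given below, and the part of the other lists in the values was not tested. The 6 neuron markers summed to 2720 to 2967 TPM in Control d14 and 2994 to 3142 TPM in Control d14+3, without overlap, and to 2768 to 3001 TPM and 2920 to 3404 TPM in ExpOF mice. The summed level of the 5 cerebellum markers did not overlap between the control days either (35.8 to 49.7 and 55.5 to 89.0 TPM). Among them Zic1 had means of 57.7 CPM in Control d14 and 107 CPM in Control d14+3, and Neurod1 of 2.041 and 2.955 CPM. Cbln3 (0.98 and 1.00 CPM), Pcp2 (0.242 and 0.171 CPM) and Gabra6 (0.0276 and 0.0215 CPM) were low on both days. The 6 cortex and hippocampus markers ranged in sum from 11.8 to 29.8 and from 22.7 to 63.9 TPM. Markers of the thalamus, which borders the hypothalamus, were higher too. Of the 5 (Prkcd, Tcf7l2, Lef1, Rora and Calb2), 4 were higher on d14+3 at an unadjusted p under 0.05 in each arm, with a median log2 fold change of 0.94 in control and 0.89 in ExpOF mice, and Rora was called in control mice (edgeR adjusted p = 0.00670). Prkcd ranged from 25.3 to 193 CPM in Control d14, 31.1 to 91.4 CPM in ExpOF d14, 122 to 345 CPM in Control d14+3 and 117 to 314 CPM in ExpOF d14+3. The mean log2 CPM of the 5 was 6.57 and 6.55 in Control d14 replicates 5 and 6, those with the highest Gabrd and Gabra4 of that group, and 5.18 to 5.63 in the other 3. Hypothalamus markers went the other way, with 9 of 13 lower on d14+3 in control mice and 4 of 13 in ExpOF mice at an unadjusted p under 0.05. With the thalamus marker level as a covariate, Gabra4 was at 0.33 (edgeR adjusted p = 0.0608) in control and 0.20 in ExpOF mice, Gabbr2 in control mice at 0.17, and Gabrd, Grm4 and Grin2c at -0.16, -0.22 and -0.12. None was called under that covariate, and neither was any of the 18992 genes in control mice, against 218 in the reported fit. At an unadjusted p under 0.05 there were 23 members and 31.5% of all genes in control mice. The covariate itself went largely with the day. It was 5.18 to 6.57 in Control d14 and 6.33 to 7.12 in Control d14+3, and 5.32 to 6.20 and 6.21 to 7.08 in ExpOF mice. This fit therefore cannot separate the marker level from the day.

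**Figure D5:**
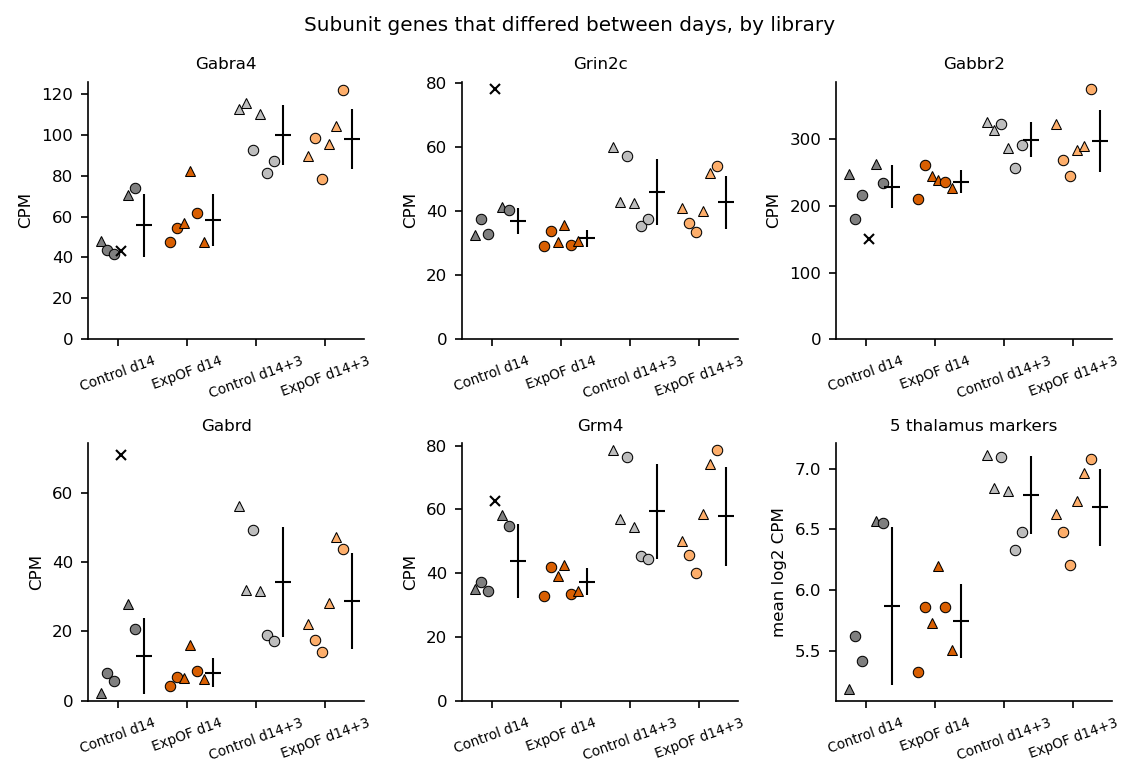
CPM of 5 members that differed between collection days at an unadjusted p under 0.05 in both arms, and the mean log2 CPM of 5 thalamus markers, by library (circles July, triangles September cohort), with the mean and SD of the tested libraries. The cross is Control d14 replicate 4, which was not tested. Gabra4 in Control d14+3 lies between 81.3 and 115 CPM, above all Control d14 libraries, and the markers and Gabrd are high in the same libraries.

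Within a group, the same libraries stood at the ends for several members. In Control d14+3, replicates 1 and 3 had the highest Gabrd (56.2 and 49.3 CPM) and Grm4 (78.5 and 76.4 CPM) and the lowest Gria2 (238 and 215 CPM), Grm5 (79.1 and 65.8 CPM) and Gabrb1 (136 and 125 CPM). In ExpOF d14+3, replicate 5 had the lowest Gria2 (261 CPM), Grm5 (86.8 CPM) and Gabrb1 (136 CPM) and the highest Gabrd (47.2 CPM). The thalamus marker level was 7.12 and 7.10 in those Control d14+3 libraries and 6.96 in that ExpOF library, the highest of its group but for replicate 6 (7.08). ExpOF d14 held no library of this kind, with Gabrd at 16.1 CPM or less and Gria2 at 383 CPM or more. Control d14 did hold one among its tested libraries. Its replicate 5 had the lowest Gria2 (237 CPM) and Grm5 (72.2 CPM) and the highest Gabrd (28.0 CPM), with Gabrb1 at 129 CPM. The thalamus marker level of that library, 6.57, was the highest of the group. Replicate 2 of Control d14 was also low for Gria2 (244 CPM) and Gabrb1 (129 CPM), but with Gabrd at 8.00 CPM.

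Most GABA-A genes lie in 4 clusters. The cluster on chromosome 5 (chr5:70751047-72149037, mm10) holds Gabrg1, Gabra2, Gabra4 and Gabrb1, that on chromosome 11 includes Gabra6 and Gabrb2, that on chromosome 7 Gabrg3 and Gabra5, and that on chromosome X holds Gabre, Gabra3 and Gabrq, with Gabrd alone on chromosome 4. Gabra4 and Gabrb1 start 222 bases apart on opposite strands, and between days in control mice Gabra4 rose by 0.84 while Gabrb1 had a log2 fold change of 0.08. On chromosome 11 Gabra6 was at 0 in most libraries, while Gabrb2 was at 61.2 CPM in Control d14. The chromosome X neighbours Gabre and Gabra3 had d14 log2 fold changes of -0.09 and 0.08. Whether reads were counted by strand is not given in the sources used here, so that members overlapping a gene on the opposite strand could share reads with it.

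Partners of the receptors were read from a list of 51 genes, of which 48 were tested. On d14 0 were called in edgeR (0.00527% of all genes), and at an unadjusted p under 0.05 ExpOF mice had 16 higher and 5 lower (43.8% of the list against 26.7% of all genes, 13.1% higher and 13.6% lower), with a median log2 fold change of 0.04. The higher ones included both kainate auxiliary genes (Neto1 0.40, Neto2 0.37), the GABA-B auxiliary genes Kctd16 (0.45) and Kctd12 (0.36), the GABA-synthesizing enzymes Gad1 (0.18) and Gad2 (0.26) and the GABA-A scaffold gephyrin, Gphn (0.13). Lower were Gabarap (-0.26), Cnih2 (-0.35), Cnih3 (-0.20), the cerebellin Cbln1 (-0.24) and the GABA transporter Slc6a13 (-0.44). On d14+3 2 of 48 had an unadjusted p under 0.05 (4.17% against 7.11% of all genes, 2.91% higher and 4.2% lower), Shisa7 higher (0.22) and Nlgn2 lower (-0.12).

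Between days in control mice 2 of the 48 were called, against 1.15% of all genes. Both were higher on d14+3, the AMPA auxiliary gene Shisa6 (0.56, edgeR adjusted p = 0.0198) and the vesicular glutamate transporter Slc17a6 (0.29, edgeR adjusted p = 0.0198). At an unadjusted p under 0.05 there were 10 higher and 2 lower (25.0% against 12.7% of all genes, 6.81% higher and 5.93% lower). In ExpOF mice 0 were called (0% of all genes). At an unadjusted p under 0.05, 6 were higher and 2 lower, against 7.79% of all genes (5.39% higher and 2.4% lower). Shisa6 was at 0.49 and Slc17a6 at 0.22. The transporter Slc17a7, also a marker of cortex and hippocampus, had log2 fold changes of 1.52 and 1.90 in the control and ExpOF arms.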

How the data were processed

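The libraries were made from poly-A RNA of hypothalamus with a stranded kit and read from both ends. Alignment to mm10 by the authors used STAR, and featureCounts 1.6.4 summarized reads over GENCODE vM22. The authors deposited raw counts, not normalized, with the length and position of every gene. The reads were not reprocessed here. Symbols came from GENCODE vM21 (55144 of 55471 genes). Members and lists were chosen with earlier results of these data known. Named with values were, in each receptor class, the members with the highest and the lowest mean TPM. On each day, up to 10 members with the smallest unadjusted p under 0.05 and the 3 with the largest absolute log2 fold change were named. So were members called in any contrast or alternative, members whose groups did not overlap, the GABA-A clusters and members that failed the expression filter. All other members given with values, the receptor partners named singly and the libraries at the ends of several members were chosen after their values were seen.

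Testing used edgeR 4.0.16 in R 4.3.3 (filterByExpr at its minimum count, 10, and minimum total, 15, TMM scaling, and a robust fit of the 4 groups over 23 libraries with the quasi-likelihood F-test), with Benjamini-Hochberg adjustment over 18992 genes and a threshold of 0.05. The left-out library, Control d14 replicate 4, was identified by matching means of the deposited counts to the mean counts the study lists. CPM used TMM factors (prior count of 2 on the log2 scale), and TPM the deposited lengths. Single values were compared with two-sided exact permutation tests. Replicates are separate mice, and the range of depth is given in the report. Replicates of a group were compared for duplicates and none was found (chi-square per degree of freedom of at least 2.95 over 60 pairs). Same-numbered replicates did not deviate together (r of -0.255 to 0.364 over 33 pairs), so the numbers were not treated as pairs.

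Alternatives were DESeq2 1.42.0, its size factors in edgeR, other filters on low counts, only the 2 groups compared, all 24 libraries, each cohort alone, covariates for RIN or for cohort and extraction round, a replicate block, a spline trend with gene length (5 degrees of freedom) removed by offsets, and each library left out. A covariate for thalamus markers and a fit without the 2 tested libraries richest in choroid plexus markers were chosen after seeing the data. The fits were tested on simulated data. Counts of genes that overlap others are uncertain where strand was not used. No correction was made for neighbouring tissue in the reported fit. Some members counted in the totals are not reported by name here and are left out of the plots.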

Additional observations from a re-analysis of the deposited data

Results flagged for a closer look

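Over 212 groups of libraries (each member and each class sum in each group), 8 held a library whose gap to its neighbour was large for the range of the group. Chance gives about 1 in 20, a larger share than these 8 of 212. The flagged libraries are therefore listed as a description and not as outlying libraries. Of the 8, 6 were in ExpOF d14. Replicate 4 was low for Gria1 (523.1 CPM, next 553.2) and Gabrq (102.9 CPM, next 119.5) and high for Gabrd (16.1 CPM, next 8.57). Replicate 5, the library with the smallest total count, was high for Gria3 (121.0 CPM, next 107.5) and Grm5 (159.1 CPM, next 130.9). Replicate 6 was high for Gabra2 (121.0 CPM, next 76.9). Control d14 replicate 2 was low for Gabbr1 (836.1 CPM, next 890.2), and ExpOF d14+3 replicate 6 was high for the summed mGlu group II level (91.3 TPM, next 74.6).

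In Control d14 replicate 4, which no comparison used, 6 members lay above every other Control d14 library, namely Grin1, Grin2c, Grin2d, Grik5, Grm4 and Gabrd, as did 37.4% of all genes.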

How the results depend on the processing

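Members called on d14 in edgeR numbered 0 in the reported fit and 0 to 14 with a library left out, the 14 being without Control d14 replicate 1. Of all genes, 1 of 18992 was called in the reported fit and 4220 of 19206 without that replicate. Members at an unadjusted p under 0.05 on d14 numbered 15, and 6 to 22 with a library left out, 8 without the 2 libraries rich in choroid plexus markers and 0 in the September cohort alone. The counts of all genes were 5069 of 18992 in the reported fit and 2776 to 7376 with a library left out. They were 2662 of 18884 without the 2 libraries rich in choroid plexus markers and 858 of 19490 in the September cohort. The median d14 log2 fold change was 0.16, and 0.0337 with the length trend removed. On d14+3, where 1 member had an unadjusted p under 0.05, the count was 0 to 3 with a library left out and 4 with RIN as a covariate. It was 0 with only the 2 groups compared, with all 24 libraries, and in the July and the September cohort alone. The counts of all genes moved as well. They were 1350 of 18992 in the reported fit, 850 to 2373 with a library left out and 2364 of 18992 with RIN. The share of all genes was 5.87% with only the 2 groups and 2.48% with all 24 libraries. In the July and September cohorts it was 8.20% and 2.96%, against 7.11% in the reported fit. Members called between days in ExpOF mice numbered 0, and 3 in DESeq2, 1 with at least 10 counts in every library (Gabra4), 1 with only the 2 groups compared (Gabra4), 1 with cohort and round as covariates (Gabra4) and 0 to 2 with a library left out. Among all genes 0 were called in the reported fit, 202 in DESeq2 and 0 to 157 with a library left out. The same count was 28 with at least 10 counts, 123 with only the 2 groups and 78 with cohort and round as covariates. In control mice the members called numbered 3, and 0 with only the 2 groups compared, in the July and September cohorts and with the thalamus covariate, and 0 to 4 with a library left out, the 0 being without Control d14 replicate 2 (Gabra4 0.77, edgeR adjusted p = 0.0653). All genes called there numbered 218 in the reported fit and 24 to 313 with a library left out. With only the 2 groups, in either cohort and with the thalamus covariate, 0 genes were called. The causes were not tested, except that fewer libraries enter the single-cohort and 2-group fits.

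The replicate number did not pair the mice. With the replicate block, 11 members had an unadjusted p under 0.05 on d14 and 0 on d14+3, and 1 was called between days in control mice (Gabra4). Over all 18992 genes these counts were 3968, 1086 and 33.

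The 15 members with an unadjusted p under 0.05 on d14 kept their sign under every alternative, while 13 of the other 26 changed it. The 15 were picked by that p, and the alternatives reuse the same libraries. Keeping the sign is therefore no separate evidence for them. Grin2a and Grin2b came down to 0.02 and 0.03 in at least 1 alternative. Of the 11 members with an unadjusted p under 0.05 between days in each arm, 3 changed sign in control mice (Gabrd, Grin2c, Grm4) and 7 in ExpOF mice under at least 1 alternative. Among the members tested, Grin3b had the lowest counts (4 to 28 in the 23 libraries), and depth limits what can be said of it.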
